A study of Mus musculus with 12 samples.

Results

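The mouse genome holds many processed pseudogenes of ribosomal protein genes, and 201 of them were measured in liver on the 12 arrays of a study of ancestral maternal obesity. They were all probe sets with 1 annotated gene symbol that starts with Rpl or Rps and contains -ps, with the brightest probe set kept for each symbol. They made up 201 of 30142 genes with a symbol of their own. The rule used names only and no measured value beyond the choice of the brightest probe set. Of the 201, 131 carried names of the large ribosomal subunit (Rpl, 36 parent genes) and 70 of the small subunit (Rps, 15 parent genes), 51 parent genes in all. Another 12 such pseudogenes lay only on probe sets that carry several symbols and are not described.

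Liver RNA came from male C57BL/6 mice aged 12 weeks, in 3 groups of 4 arrays. The control group had lean control parents, the MatOb F2 group descended at the F2 generation from obese Avy/a females, and the MatOb F3 group descended from such females at the F3 generation. Avy is the viable yellow allele of agouti, which causes obesity in its carriers. The labels do not give the generation of each control male, nor whether the sons carried the allele. The question was whether an obese female ancestor left a difference in gene expression in these generations. The labels do not state that the replicates of a group were different animals. P-values therefore refer to the variation among these arrays, some of it possibly technical, and the number of arrays limits the precision. In bulk liver RNA, fewer cells of a type and less RNA per cell cannot be told apart. The 7 hepatocyte markers measured had mean log2 values between 12.17 and 13.31.

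Ribosomal proteins are encoded by single working genes with introns and short, highly translated messages that begin with a pyrimidine tract. Those messages have been copied back into the genome many times by reverse transcription, which leaves intronless copies with no promoter of their own and usually with mutations that break the reading frame. Because the copies resemble their parent and one another closely, a probe that matches a copy can also bind the parent's abundant message. The value of such a probe set therefore could not be assigned to the copy alone, and throughout the text a pseudogene's level means the signal of its probe set. Brightness also differs between probes for reasons of sequence, so an order of levels between probe sets is an order of signals, not of transcript numbers.

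The largest group of copies, named for Rpl31 (a large-subunit protein near the exit of the nascent chain), shows what retrocopying leaves behind. Start regions were at hand for Rpl31 and for 1 of its copies, Rpl31-ps12, the only 1 of the 201 with such an entry. The next lines give the 30 bases of each in which they share a stretch near the 5′ end, from RefSeq on GRCm38.p6. Capitals mark the shared 23 bases, and lower case the 7 bases before them, where the likeness ends on the 5′ side. Bases after the stretch are not shown, so the 23 bases need not be the full extent of the likeness.
Rpl31 (chr1:39367871-39367900, plus strand): cggctacGCGACTTTCCCTCCCACAAACCC
Rpl31-ps12 (chr16:16820158-16820187, minus strand): caacatgGCGACTTTCCTTCCCACAAACCC
Of the 23 bases 22 matched, and the only substitution was C11T, counted from 1 at the 5′ end of the stretch with the base of Rpl31 first. Counted from 1 at the RefSeq start, the stretch begins at position 28 in Rpl31 and at position 17 in Rpl31-ps12. The 100 bases that precede each start are shown to compare the promoter of the working gene with the sequence into which the copy was inserted.
Rpl31 upstream (chr1:39367751-39367850, plus strand): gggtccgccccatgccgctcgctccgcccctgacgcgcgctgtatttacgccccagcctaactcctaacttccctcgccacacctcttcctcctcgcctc
Rpl31-ps12 upstream (chr16:16820197-16820296, minus strand): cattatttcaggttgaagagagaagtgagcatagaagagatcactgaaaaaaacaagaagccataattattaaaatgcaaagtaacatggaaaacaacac
The upstream sequences matched at 23 of 100 positions without gaps. G and C made up 67% of the bases before Rpl31 and 32% of those before Rpl31-ps12, with a median of 55% over 32851 RefSeq promoters. RefSeq places Rpl31-ps12 within the span of Spag6l and classes it as protein coding. Its log2 value lay between 6.97 and 7.36 on the 12 arrays.

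The pseudogenes gave bright signals as a group. The median of their mean log2 values over the 12 arrays was 8.19 (quartiles 5.83 and 9.37). It was 5.19 for all 30142 genes and 8.44 for the probe sets named for 34 ribosomal protein genes. The 635 other genes with -ps names, outside Rpl and Rps, had a median of 3.56. They were chosen by name only, and whether they are processed copies was not checked. Of the 201, 132 (65.7%) were brighter than 7.05, the 95th percentile of the array's 5222 negative control probe sets. The shares were 19.2% of all genes and 97 (15.3%) of the 635 others with -ps names. These are descriptions of probe set signals with no test.

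**Figure D1:**
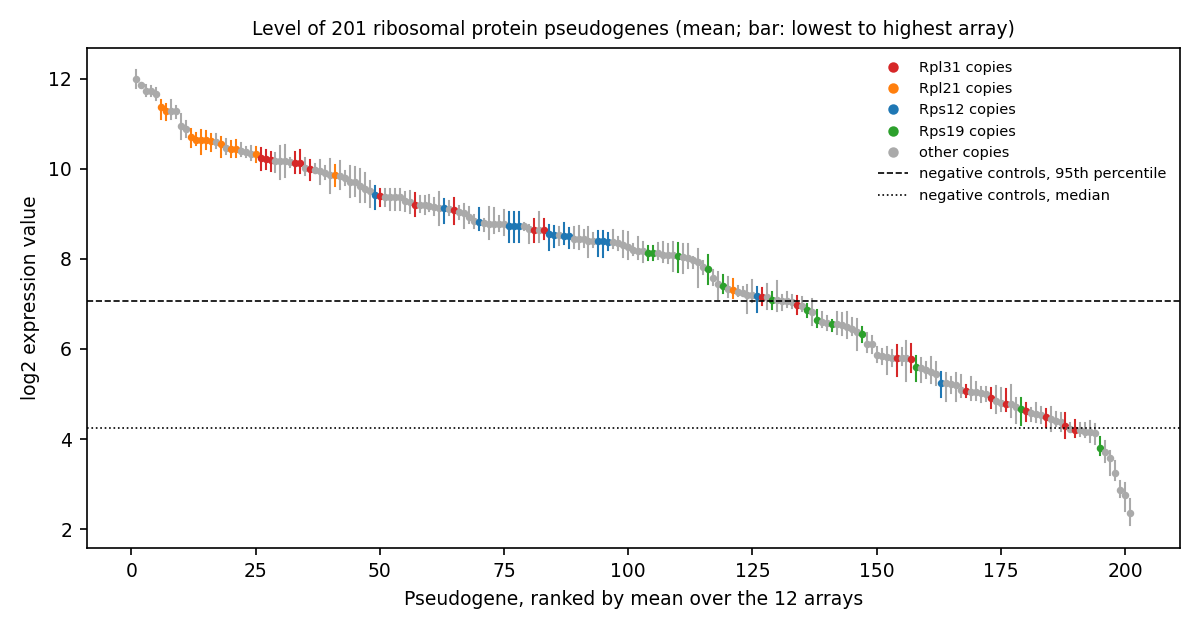
Mean log2 value of each of the 201 pseudogenes over the 12 arrays, in rank order, with a bar from the lowest to the highest array; colours mark the copies of 4 parents and the horizontal lines the median (4.24) and 95th percentile (7.05) of the negative control probe sets. The levels run from 11.98 to 2.36, the Rpl21 copies sit near the top and the Rpl31 copies are spread over most of the range.

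The brightest was Rpl28-ps3 at a mean of 11.98, a copy of the gene for the large-subunit protein L28 that lies within the span of Oscp1. Its values were 12.13, 12.07, 11.93 and 11.80 in the controls, 11.86, 12.09, 12.04 and 11.87 in F2, and 11.89, 11.95, 11.99 and 12.18 in F3, so the 3 groups overlapped. Oscp1 itself had a mean of 5.13. Rps23-ps followed at 11.87 and had the smallest spread of all members, with an SD of 0.030 over the 12 arrays. Rpl10-ps6 (11.72), Rpl10-ps1 (11.71) and Rpl18-ps1 (11.67) came next, and the range over the arrays of each of these 5 overlapped that of the next in the order. At the other end stood Rpl9-ps5 (2.36), Rpl9-ps2 (2.76) and Rpl48-ps1 (2.88), all below the median negative control at 4.24. Copies of Rpl9 thus reached the bottom of the order, and yet the brightest of the 7 stood at 10.17.

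Large-subunit copies had a median level of 8.64 and small-subunit copies one of 8.0. RefSeq entries matched 200 of the 201: 193 were classed as pseudogenes, 5 as transcribed pseudogenes (Rpl14-ps1, Rps6-ps4, Rps19-ps3, Rps15a-ps6 and Rps15a-ps4) and 2 as protein coding (Rpl34-ps1 and Rpl31-ps12). Levels differed within a class: Rpl14-ps1 had a mean of 10.18, while Rps15a-ps4 at 4.55 barely passed the filter described below. The 44 pseudogenes that lie within the span of a protein-coding gene had a median of 8.42, against 8.13 for the 156 outside one. Level and annotated length were nearly unrelated across genes (Spearman's rho 0.069 over pseudogenes, which are not independent of one another). Probe set identifiers placed the members on 20 chromosomes, with 29 (14.4%) on the X chromosome. The shares were 6.11% of all genes and 47 (7.40%) of the other genes with -ps names. Rps12 gave more of the 29 than any other parent, so the share is not spread evenly over families. Among its copies there were Rps12-ps6, Rps12-ps17 and Rps12-ps18, whose values are identical. Members on the X had a median level of 8.19 and those elsewhere one of 8.21.

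Some copies could not be told apart by the array. Rpl35a-ps3, Rpl35a-ps4 and Rpl35a-ps6 had identical values on all arrays (mean 9.37), as did Rps12-ps6, Rps12-ps17 and Rps12-ps18 (8.73), and Rps19-ps1 and Rps19-ps2 (8.13). The 201 names therefore held 196 distinct rows of values.

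Copies of the same parent varied together over the arrays. For each pair among the 127 bright members with distinct values, the SD over the 12 arrays of the difference between their log2 values was computed, a measure that is small where both go up and down together whatever their levels. Its median was 0.061 over the 295 pairs with the same parent and 0.129 over the 7706 pairs with different parents. The closest pair was Rps12-ps20 and Rps12-ps23, copies of a small-subunit gene, whose difference had an SD of 0.020 although each varied with an SD of 0.15. Rps12-ps20 ran from 8.20 in control replicate 3 to 8.74 in F3 replicate 3, and Rps12-ps23 from 8.06 to 8.62 on the same arrays. Rpl15-ps2 and Rpl15-ps3, whose levels differed by up to 3.85, still had a difference with an SD of only 0.031. By family, the median SD of the difference was 0.044 for Rpl30 copies, 0.052 for Rpl21, 0.056 for Rpsa, 0.058 for Rpl31, 0.072 for Rps12 and 0.080 for Rps19. These figures describe probe sets that share sequence as well as arrays.

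A pseudogene could be set beside its parent for few families, because most working ribosomal protein genes share their probe sets with other symbols. A probe set of its own was found for 18 of the 51 parents. For 5 of these (Rpl7a, Rpl12, Rpl27, Rpl31 and Rpl35) the chromosome in the identifier of the brightest probe set was not that of the RefSeq gene, so that probe set carries the parent's name but lies elsewhere, and their 35 pairs were set aside. Rpl7a, Rpl27 and Rpl35 have a second, dimmer probe set on their own chromosome, and their 11 pairs with it are given beside the rest. All 200 pseudogenes with a RefSeq entry lay on the chromosome their identifiers gave. This left 43 pseudogenes with 13 parents whose brightest probe set lies on their own chromosome, and the levels of these parents ran from 6.17 (Rps19) to 9.43 (Rplp0, the stalk protein).

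Over the 43 pairs the pseudogene minus parent difference had a median SD of 0.089 over the arrays. The pseudogenes alone had a median SD of 0.113, and the median SD of their differences from other ribosomal protein genes was 0.129. The difference varied less than the pseudogene itself in 26 of the 43 pairs, and less than the median difference from other ribosomal protein genes in 41. When the 34 or 35 ribosomal protein genes and parents were ranked by how closely they followed a pseudogene, its own parent came first in 13 pairs and among the first 5 in 24. The 5 set-aside parents raised the median to 0.115 over all 78 pairs. With the 11 pairs of the second probe sets, the median over 54 pairs of 16 parents was 0.090 against 0.114 for the pseudogenes alone, and the difference varied less than the pseudogene in 33. Among them, Rpl7a-ps10 (SD 0.10) had a difference with an SD of 0.074 from the Rpl7a probe set on its own chromosome and of 0.113 from the brighter one elsewhere.

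**Figure D2:**
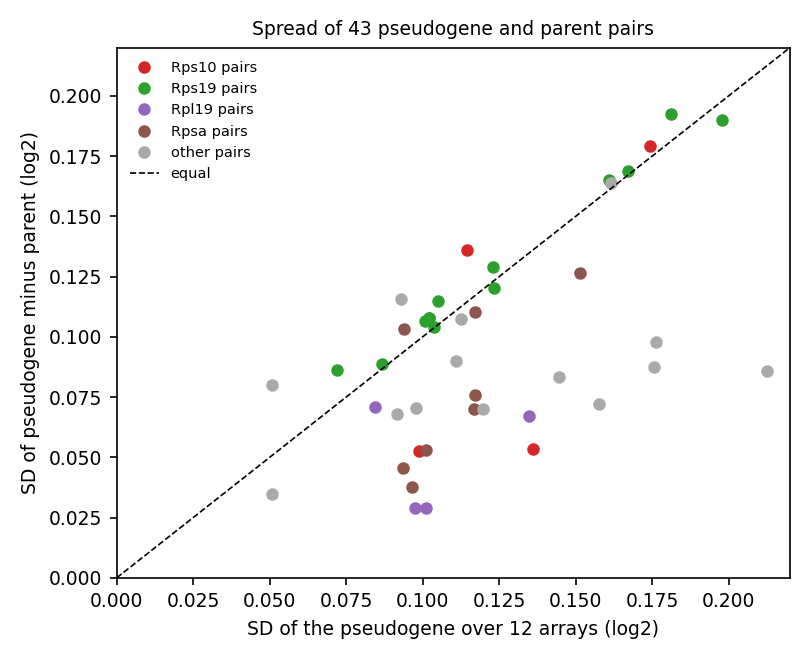
SD of each pseudogene's log2 value over the 12 arrays (horizontal) against the SD of its difference from its parent (vertical), for the 43 pairs whose brightest parent probe set lies on the parent's chromosome; the dashed line marks equality. Of the points, 26 lie below the line, the 4 Rpl19 copies among them, and the Rps19 copies lie along it.

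The smallest SDs of the difference were those of copies of Rpl19, a large-subunit protein that bridges both subunits. Rpl19-ps1 had a mean of 10.33 and an SD of 0.10, and its difference from Rpl19 (8.87) had an SD of only 0.029. Rpl19-ps11 (10.46) gave the same 0.029. Relative to the SD of the pseudogene itself, Rpsa-ps4 and Rps10-ps1 came next. Rpsa-ps4, a copy of the gene for the laminin receptor and small-subunit protein SA, had a difference from Rpsa with an SD of 0.038 against 0.096 of its own, and Rps10-ps1 one of 0.054 against 0.136. Rpl10a-ps1 had a smaller difference (0.035) but also varied less itself (0.051). For each of these 5 the parent came first of all ribosomal protein genes. The 13 copies of Rps19, the gene mutated in many patients with Diamond-Blackfan anaemia, behaved otherwise: their median SD of difference was 0.115 against a median own SD of 0.105, and Rps19 ranked first for none of them. Of the 43 pseudogenes, 25 were brighter than their parent, with a median of 0.38 and a range from -4.25 to 4.10 on the log2 scale. Since the probes differ, this compares signals only.

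The 3 groups were compared in a limma fit of all 12 arrays, over 18725 genes with a mean over 4.55, the median level of the probe sets. Of the 201 pseudogenes 182 passed this filter. Just inside were Rps15a-ps4 (4.55), Rpl23a-ps13 (4.58) and Rpl31-ps4 (4.62), and just outside Rpl35-ps1 (4.54), Rpl31-ps24 (4.48) and Rpl36-ps7 (4.45). No gene, and so no pseudogene, passed an adjusted p of 0.05 in F2 against control, F3 against control or F3 against F2 (limma with Benjamini-Hochberg adjustment, 0% of 18725 in each). The smallest adjusted p among the pseudogenes was 0.9998. At an unadjusted p under 0.05, 172, 548 and 443 genes were found in the 3 comparisons, 0.919%, 2.93% and 2.37% of those tested. The values below are descriptions of differences that failed the correction.

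For most pseudogenes the F3 mean was above the mean of each other group. In F3 against control 141 of 182 differences (77.5%) were above 0, against 45.3% of all genes tested, and the median was 0.07 on the log2 scale (all genes -0.01). In F3 against F2 168 of 182 (92.3%) were above 0, against 51.4% of all genes, with a median of 0.11 (all genes 0.00). In F2 against control 49 of 182 (26.9%) were above 0, against 43.3%, with a median of -0.02. After quantile normalization the 3 shares were 65.4%, 75.3% and 32.4%, and after centring each array on its median 77.5%, 88.5% and 41.8%, while the shares over all genes moved to 39.3%, 39.5% and 48.6% and to 44.2%, 41.1% and 54.5%. The comparisons share arrays: both contrasts with control use the same controls, and both contrasts of F3 the same F3 arrays.

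**Figure D3:**
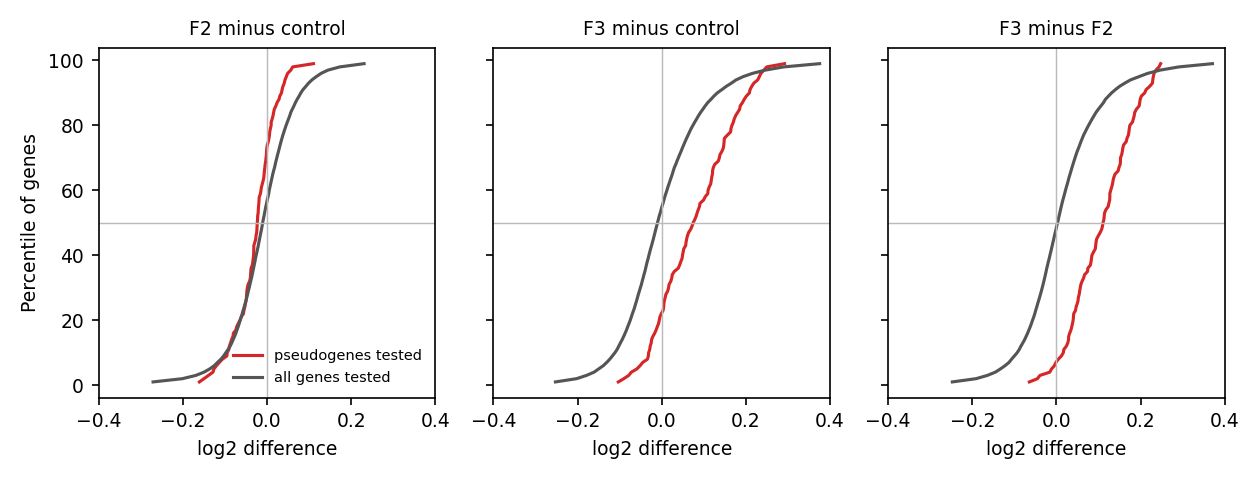
Percentile of genes (vertical) against their log2 difference between groups (horizontal) for the 182 pseudogenes tested (red) and all 18725 genes tested (grey), from the 1st to the 99th percentile. The red curve lies to the right of the grey curve around the median in both comparisons of F3 and slightly to its left in F2 minus control.

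Unadjusted p-values under 0.05 were found for 24 of the 182 (13.2%) higher in F3 than in control, where 1.64% of all genes were higher at that level, and for none lower (all genes 1.28%). In F3 against F2, 32 (17.6%) were higher, against 1.59% of all genes, and none lower (0.774%). In F2 against control none was higher (0.342%) and 2 were lower (0.577%). By ranges that did not overlap, 4 pseudogenes (2.20%) lay wholly above control in F3, against 0.726% of genes, and 33 (18.1%) wholly above F2, against 1.62%. Of the 4 above control 3 were copies of Rpl31, and without Rpl31 copies 1 of 163 (0.613%) lay wholly above control. No pseudogene lay wholly below control or F2 in F3 (all genes 0.903% and 0.838%), and none wholly above control in F2 (0.304%). The counts at p under 0.05 depended on the scaling, falling to 5 (2.75%, all genes 1.19%) in F3 against control and 5 (2.75%, all genes 0.84%) in F3 against F2 after quantile normalization. They also depended on single arrays. In F3 against control the count was 7 (3.85%) without control replicate 3, where 1.21% of all genes were higher, 7 (3.85%, all genes 1.78%) without control replicate 4, and 44 (24.2%, all genes 2.33%) without control replicate 1.

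The excess was uneven between families. Of the 22 copies of Rpl31, 21 had a higher mean in F3 than in control, with a median difference of 0.21 and values from -0.09 to 0.31. Of the 19 tested, 16 were higher at an unadjusted p under 0.05, and with no filter 17 of the 22. Rpl31-ps21, the dimmest of them at 4.21, was the exception. The 12 copies above the negative controls' 95th percentile had a median of 0.22, and the 10 dimmer ones one of 0.20. The 19 Rpl31 copies that passed the filter (13 with a stricter filter) were above 0 in F3 against control in each setting run that kept a filter, with medians from 0.16 to 0.27. In F2 against control the 22 copies had a median of 0.00, with 12 above 0.

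All 13 copies of Rpl21, another large-subunit protein, were also above control in F3, by 0.11 to 0.19 (median 0.15, 5 of 13 with p under 0.05), and they stayed above 0 in each setting run. The 8 copies of Rpl30, a large-subunit protein that binds its own transcript in yeast, were all above 0 too (0.15 to 0.24, median 0.19), with 1, Rpl30-ps3, at p under 0.05. The remaining 2 of the 24 were Rpl17-ps1 and Rpl10a-ps2. The 15 copies of Rps12 were above 0 by smaller amounts (0.05 to 0.14, median 0.10) and none had p under 0.05. Copies of Rpsa (3 of 8 above 0, median -0.03) and Rps10 (1 of 4, median -0.04) did not share the direction. The medians of the 51 families ran from -0.10 (Rps25) to 0.21 (Rpl31), and 32 of them were above 0. Without the copies of Rpl31 and Rpl21, 109 of 150 tested pseudogenes (72.7%) were still above 0, and 3 (2.00%) had p under 0.05, against 1.64% of all genes. Of these 150, 1 (0.667%) lay wholly above control in F3, against 0.726% of all genes. In F3 against F2, 136 of the 150 (90.7%) were above 0, 10 (6.67%) had p under 0.05, against 1.59% of all genes, and 11 (7.33%) lay wholly above F2, against 1.62%.

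**Figure D4:**
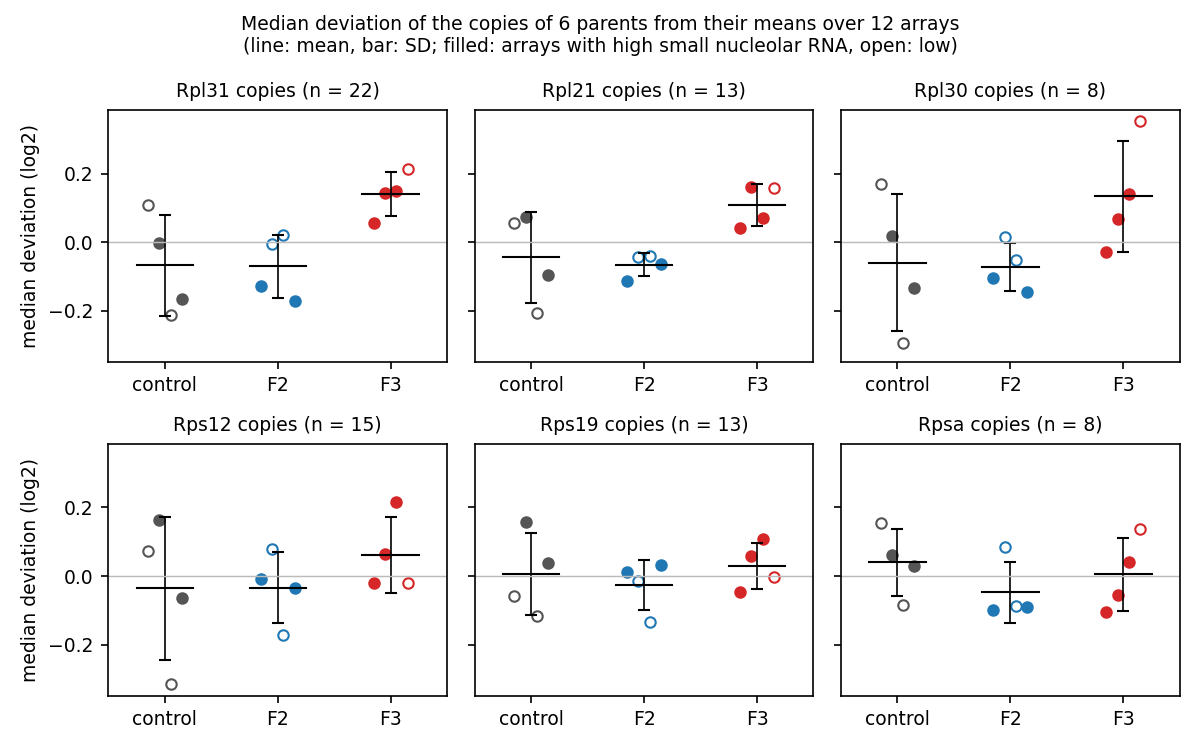
Median over the copies of 6 parents of each copy's log2 deviation from its mean over 12 arrays (vertical), by group; points are arrays, lines group means and bars SDs of 4 arrays, with filled points for the 7 arrays with high small nucleolar RNA signal and open points for the 5 with low. The Rpl31 and Rpl21 copies are above 0 on each F3 array, while Rps12, Rps19 and Rpsa copies overlap between groups.

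On the single arrays the Rpl31 copies had a median deviation of 0.06, 0.14, 0.15 and 0.21 in F3, of -0.13, -0.01, 0.02 and -0.17 in F2, and of 0.11, 0.00, -0.21 and -0.17 in the controls. F3 lay wholly above F2, but control replicate 1 lay above F3 replicate 1. For the Rpl21 copies the F3 values were 0.04, 0.16, 0.07 and 0.16, those of F2 -0.11, -0.04, -0.04 and -0.06, and those of the controls 0.06, 0.07, -0.21 and -0.10. Again F3 cleared F2 and overlapped the controls, which were spread over a wider range than either other group. Over all 201 pseudogenes the median deviation was 0.07, 0.04, -0.12 and -0.08 in the controls, -0.08, 0.01, -0.01 and -0.09 in F2, and -0.02, 0.06, 0.08 and 0.14 in F3. On this measure F3 overlapped both other groups. The group means were -0.02 ± 0.09, -0.04 ± 0.05 and 0.07 ± 0.07 (SD, n = 4) for control, F2 and F3.

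Among the single members, Rpl17-ps1 had the lowest p in F3 against control. It is a copy of the gene for L17, a large-subunit protein at the peptide exit. Its log2 values were 8.06, 8.07, 7.69 and 7.87 in the controls, between 7.95 and 8.01 in F2, and 8.14, 8.32, 8.21 and 8.25 in F3. All F3 arrays lay above all others. The difference from control was 0.31 (SE 0.082, 95% confidence interval 0.13 to 0.49, adjusted p = 0.9998 by limma) and that from F2 0.25 (SE 0.082, adjusted p = 0.9999 by limma).

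Rpl31-ps20 read 9.15, 9.07, 8.78 and 8.87 in the controls, 8.91, 9.17, 9.10 and 8.90 in F2, and 9.16, 9.32, 9.28 and 9.34 in F3. Its F3 range lay just above that of the controls and overlapped that of F2. The difference from control was 0.31 (SE 0.092, interval 0.10 to 0.51). Rpl31-ps10 read 10.26, 10.07, 9.91 and 9.94 in the controls, between 9.97 and 10.13 in F2, and 10.19, 10.31, 10.30 and 10.41 in F3. Control replicate 1 fell within its F3 range, and no F2 array did. It differed by 0.25 from control (interval 0.07 to 0.43) and by 0.24 from F2. Rpl31-ps22 differed by 0.23 from control (interval 0.06 to 0.41), with F3 between 8.70 and 8.89 and the controls between 8.43 and 8.70.

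Rpl31-ps9 had the lowest p in F3 against F2, although it is a dim copy. It read 4.98, 4.93, 5.08 and 4.93 in F2, 5.17, 5.20, 5.17 and 5.19 in F3, and 5.18, 5.07, 4.94 and 4.94 in the controls. F3 lay wholly above F2 by a difference of 0.20 (SE 0.064, adjusted p = 0.9999 by limma), and control replicate 1 lay at the F3 level. Rpl21-ps5 read 10.32, 10.39, 10.36 and 10.35 in F2, 10.50, 10.64, 10.51 and 10.59 in F3, and 10.50, 10.51, 10.27 and 10.30 in the controls. Its difference between F3 and F2 was 0.21 (SE 0.068). The 33 pseudogenes wholly above F2 in F3 included 11 copies each of Rpl31 and Rpl21 and 3 of Rpl17.

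**Figure D5:**
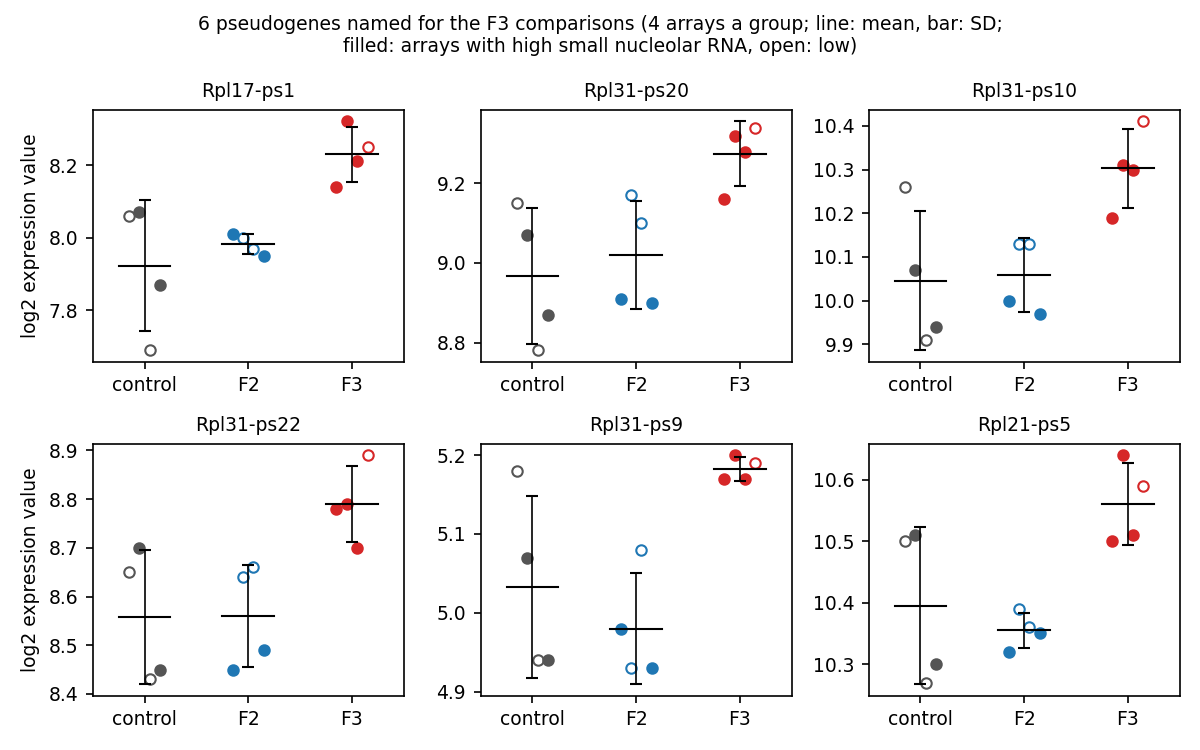
Log2 value on each array (vertical) of 6 pseudogenes named by their p in comparisons with F3, by group; lines are means and bars SDs of 4 arrays, with filled points for arrays with high small nucleolar RNA signal and open points for arrays with low. Each axis has its own range. F3 lies above F2 for Rpl17-ps1, Rpl31-ps10, Rpl31-ps22, Rpl31-ps9 and Rpl21-ps5, and above the controls without overlap for Rpl17-ps1 and Rpl31-ps20.

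In F3 41 of the 182 lay below control and 14 below F2, none of them with an unadjusted p under 0.05. The lowest p among negative differences from control in F3 were those of Rps10-ps4 (-0.12, SE 0.080), Rpsa-ps4 (-0.09, SE 0.068), Rps25-ps1 (-0.10, SE 0.083) and Rpl12-ps1 (-0.08, SE 0.071), each with overlapping groups. Against F2 they were those of Rps10-ps4 (-0.10), Rpl36-ps1 (-0.10), Rps2-ps6 (-0.04) and Rpl39-ps (-0.06).

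In F2 against control the members with the lowest p were lower. Rpl12-ps1 read 7.19, 7.08, 7.16 and 7.16 in the controls and 6.90, 7.15, 7.04 and 6.86 in F2, a difference of -0.16 (SE 0.071, adjusted p = 0.9999 by limma) with overlapping groups. Rpl26-ps2 read 5.05, 5.15, 5.02 and 5.04 in the controls and 4.97, 4.82, 5.01 and 4.94 in F2 (-0.13, SE 0.059), and Rpsa-ps11 6.25, 6.08, 6.18 and 6.07 against 6.02, 6.04, 6.00 and 5.93 (-0.15, SE 0.072). Both were wholly lower in F2, the only 2 of the 182 (1.10%) to be so, against 0.401% of all genes. Rpl13-ps1 differed by -0.14 (SE 0.077). The positive differences with the lowest p were those of Rpl13a-ps1 (0.11), Rpl36-ps1 (0.13), Rps15a-ps3 (0.12) and Rpl17-ps1 (0.06), all with overlapping groups.

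The parents' differences lay below those of their copies in F3. Of the 13 parents whose brightest probe set lies on their own chromosome 2 had a higher mean in F3 than in control, and their median difference was -0.06. The second probe sets of Rpl7a, Rpl27 and Rpl35 were all above control (0.01, 0.03 and 0.05), which made 5 of 16 with a median of -0.04. The 43 pseudogenes of the 13 parents had a median difference of 0.005, with 24 above 0. In 38 of the 43 pairs the pseudogene's difference lay above its parent's, by a median of 0.06, and the median of a parent's copies exceeded the parent in all 13 families. After quantile normalization it did so in 13 as well, and without any 1 array in 12 or 13. Centring each array on its median leaves a difference within an array unchanged, so that scaling was no check here. With the 3 second probe sets the copies exceeded the parent in all 16 families and in 46 of 54 pairs. After quantile normalization the number of families was again 16, and without single arrays 15 or 16. In F2 against control the copies exceeded the parent in 9 of 13 families, and in 11 of 16 with the second probe sets. By pair they did so in 19 of 43, with a median excess of -0.006. With the second probe sets it was 25 of 54 pairs, also with a median excess of -0.006.

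Counted by array, the median excess of copies over parent, as a deviation from its mean over 12 arrays, was 0.02, 0.07, 0.03 and 0.07 in F3, between -0.01 and 0.00 in F2, and -0.03, 0.01, -0.07 and -0.02 in the controls. All F3 arrays lay above all others, F3 replicate 1 only narrowly above control replicate 2. The copies of Rpl31, Rpl21, Rpl30 and Rps12 had no parent probe set of this kind.

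Other genes of translation gave no such counts in F3 against control. Of the 34 ribosomal protein genes measured, out of 79 listed, 13 were above 0 in F3 against control, with a median of -0.02, 0 higher and 1 lower at an unadjusted p under 0.05. Here and above, the 34 include Rpl7a, Rpl12, Rpl27, Rpl31 and Rpl35, whose brightest probe sets lie on another chromosome. Rpl31 (0.19) and Rpl35 (0.14) had the largest positive differences from control in the list. Location was not checked for listed genes that are not parents. Of 17 translation factors and other genes with the same pyrimidine-tract messages 10 were above 0 (median 0.01), and of 21 ribosome biogenesis genes 4 (median -0.09), with none at p under 0.05 in either list. Of the other genes with -ps names 218 were tested, and 125 (57.3%, all genes 45.3%) were above 0 in F3 against control, with a median of 0.02. At p under 0.05, 8 (3.67%, all genes 1.64%) were higher. In F3 against F2, 22 of the 34 ribosomal protein genes (64.7%) were above 0, against 51.4% of all genes. Of these 34, 1 (2.94%, all genes 1.59%) was higher at p under 0.05 and 2 (5.88%, all genes 1.62%) lay wholly above F2. The translation factor list had 10 of 17 above 0 and the biogenesis list 7 of 21. The other genes with -ps names had 141 of 218 (64.7%) above 0, and 3 (1.38%) higher at p under 0.05. No gene of these lists passed the adjusted threshold.

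The arrays also fell into 2 sets by the mean signal of 337 small nucleolar RNAs, 7 at 6.33 or more and 5 at 6.03 or less, with 2 control, 2 F2 and 3 F3 arrays in the higher set. The median pseudogene was 0.04 lower in the higher set, and of the 182 tested 5 lay wholly higher and 8 wholly lower in it, where 3.37% and 2.34% of all genes did. Within the higher set the mean pseudogene deviation in F3 exceeded that of control by 0.06, and within the lower set, which holds 1 F3 array, by 0.17. With the set as a block the counts at p under 0.05 were 38 (20.9%, all genes 2.11%) in F3 against control and 49 (26.9%, all genes 2.14%) in F3 against F2, and the adjusted p stayed above 0.05 for all genes. Array medians over all probe sets lay between 4.49 and 4.60. The 7 hepatocyte markers were above control in F3 in 6 of 7, with a median of 0.07, the same to this precision as that of the pseudogenes, and above F2 in 4 of 7 (median 0.01), none with p under 0.05. Summed, they ran from 87.29 to 88.46 in the controls, from 87.48 to 88.46 in F2 and from 88.12 to 88.43 in F3 (log2 units). Marker lists of other liver cell types (macrophage, lymphocyte, neutrophil, erythroid, endothelial, stellate cell and cholangiocyte) had 1 gene in all at p under 0.05 over the 3 comparisons, a stellate cell marker in F3 against F2. The stellate markers were higher in F3 than in F2 in 6 of 7, with a median of 0.13, and higher than in control in 5 of 7, with a median of 0.11. Summed over the 7 markers they ran from 47.51 to 50.05 in the controls, from 47.73 to 49.24 in F2 and from 48.90 to 49.57 in F3 (log2 units). The part of either marker list in the pseudogene values was not tested.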

How the data were processed

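Total liver RNA was measured on 12 Affymetrix whole-transcript arrays, 4 a group, from 100 ng of input with biotin labelling, per the labels. The deposited table holds log2 expression values for 72688 probe sets. Per the submitters' processing notes the tool was Affymetrix Expression Console, with version, background correction and normalization not stated there, and the log2 scale is inferred from the range of the values (0.73 to 13.64). Symbols came from the platform annotation and were updated through a RefSeq table (GRCm38.p6). Of 32750 annotated probe sets, 30604 had 1 distinct symbol and 2146 several.

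Group values come from limma 3.58.1 in R 4.3.3 (lmFit and eBayes on all 12 arrays, 9 residual degrees of freedom, no covariate), with Benjamini-Hochberg adjustment over 18725 genes with a mean above 4.55, checked on simulated data. Other values were computed in Python 3.11.15. Named in each comparison were the 4 tested members with the lowest p in each direction, beside the brightest, the dimmest and the pairs with the lowest and highest ratio of the SD of the pseudogene minus parent difference to that of the pseudogene, where not set aside. The members and lists were chosen with earlier results of these data known. Parents whose brightest probe set lay on another chromosome were set aside, and second probe sets added, after the values were seen. Alternatives were other scalings, filters, probe set averaging, moderation, blocks for replicate number and for small nucleolar RNA, and leaving out arrays.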

Additional observations from a re-analysis of the deposited data

Results flagged for a closer look

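Among the 4 arrays of a group, 3 named pseudogenes had 1 array far from the other 3, by Dixon's criterion at the 95% level. These were 3 of 57 groups checked, and chance alone exceeds the criterion in about 1 of 20. Rpl26-ps2 read 4.98 in F3 replicate 1 and 5.07 to 5.09 in the other F3 arrays. Rps2-ps6 read 8.61 in control replicate 3 and 8.84 to 8.88 in the other controls. Rps25-ps1 read 7.60 in control replicate 1 and 7.30 to 7.32 in the other controls, so its negative difference in F3 rests in part on that array.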

How the results depend on the processing

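No gene passed the adjusted threshold under any setting run. The median pseudogene difference ran from 0.04 to 0.12 in F3 against control and from 0.07 to 0.13 in F3 against F2. It moved from its main value by less than the spread between arrays, a within-group SD of 0.080. That SD is wider than the main median of 0.075 in F3 against control, so a fall to 0 would have met the criterion too. In F2 against control the median turned positive without control replicate 1 (0.01) or 2 (0.005). The number of pseudogenes higher at p under 0.05, whose alternatives were chosen after seeing the data, moved most: from 24 in F3 against control to 5 after quantile normalization, 10 after median centring, 13 with replicate number as a block, 38 with the small nucleolar RNA set as a block, 37 without control and F2 replicate 2 together (all genes 1.19%, 1.07%, 1.30%, 2.11% and 3.87%), and 7 to 44 without single arrays. From 32 in F3 against F2 it moved to 5, 6, 21 and 49 under the first 4 of these (all genes 0.84%, 0.69%, 1.29% and 2.14%). Without single arrays it ran from 9 without F2 replicate 4 to 50 without control replicate 3 (all genes 1.2% and 2.34%). It was 11 without F2 replicate 1 and 13 without F3 replicate 4 (all genes 1.67% and 1.78%). Without F3 replicate 4 the count against control was 9 (all genes 1.54%). Deviations from the group means correlated between -0.51 and 0.32 over same-numbered arrays of different groups. With 4 arrays a group this cannot settle whether the numbers pair samples, and the main fit used no pairing. Small differences in F2 against control turned sign for Rpl36-ps1 (-0.006 without control and F2 replicate 2 together), and, without control replicate 3, for Rps15a-ps3 (-0.026 to 0.2122 over single arrays left out) and Rpl17-ps1 (-0.0157 to 0.1126). The causes were not tested. Signal over background limits the 69 pseudogenes at or under the negative controls' 95th percentile.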
